A study of Pan troglodytes with 6 samples.

Results

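Cytochromes P450 are heme enzymes that insert an atom of oxygen into drugs, fatty acids, sterols, steroids and vitamins. Most sit in the endoplasmic reticulum and take electrons from the reductase POR, some with cytochrome b5 as a helper, whereas a few sit in mitochondria and take them from ferredoxin. The liver is the main organ of drug oxidation and of bile acid synthesis, while the brain is known for CYP46A1, which turns cholesterol of neurons into an oxysterol that can leave the tissue. The genes described here are those whose array feature carried a single gene symbol that begins with CYP and a digit. There were 36 such features for 35 symbols among 12584 genes with a symbol of their own. CYP2R1 had 2 features, of which the brighter was kept. One of the 35 symbols, CYP1B1-AS1, names an antisense RNA and no enzyme, which leaves 34 P450 genes. A further 12 CYP symbols, among them CYP2B6, CYP3A7 and CYP51A1, occurred only on features that name several genes and are given no value.

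RNA was taken from the liver and the cerebellum of chimpanzees (Pan troglodytes), with 3 arrays per tissue, and hybridised to Affymetrix Human Exon 1.0 ST arrays, whose probes follow the human genome. In both tissues the sample of replicate 1 came from a female aged 27 years, that of replicate 2 from a male aged 37 and that of replicate 3 from a male aged 30. No treatment is given, and whether same-numbered samples of both tissues came from 1 animal is not stated. The deposited intensities are on a linear scale and share 1 distribution on all 6 arrays, with a median of 96.3, so each value is relative to the other features of its array and no difference in total signal can appear.

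The markers of both tissues were in place. The 6 measured of 10 listed hepatocyte markers summed to 21409 to 23757 in liver and 91.8 to 144 in cerebellum, and the 9 measured of 10 cerebellar neuron markers to 290 to 459 in liver and 16002 to 16901 in cerebellum. No marker in either list had a mean of 0 or below in either tissue. Liver replicate 3 stood apart in other cell types. Its 10 measured of 12 macrophage markers summed to 9506, beside 5367 and 5276 in replicates 1 and 2, and its 8 measured of 10 fibroblast, stellate cell and smooth muscle markers to 4220, beside 1822 and 1535. The largest value in that second sum was DCN, with 880, 839 and 1979 in liver replicates 1 to 3. RGS5 (383, 176 and 83.0) and MYH11 (19.0, 16.1 and 10.4) of the same list were lowest in liver replicate 3. In bulk tissue, fewer cells of a type and less RNA per cell cannot be told apart.

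The P450 genes were compared between the tissues on log2(intensity + 16.8), where the added 16.8 is a pseudocount that keeps dim values from dominating, so differences of dim genes are understated. Each difference is liver minus cerebellum, given with its standard error and the p value of limma's moderated test, corrected for all 15143 features by Benjamini-Hochberg. A gene is called at an adjusted p below 0.05. Of the 34 P450 genes, 18 were higher in liver, 3 were lower and 13 did not pass. Among all features, 50.6% were called, 23.9% higher in liver and 26.7% lower. These shares are the background for the counts by role given below. The median difference was 0.78 over the P450 genes and -0.04 over all features. With an alignment on 97 general genes of the ribosome, the proteasome and the respiratory chain, which moves the median of all features to -0.55 and all differences by the same amount, 15 P450 genes were higher in liver and 6 lower, against 2118 and 6958 of all features. The differences among P450 genes, and of each against the median of all features, are the same under both scalings. Of the 34 genes, 19 had all 3 livers above all 3 cerebella and 3 the reverse, against 28.4% and 30.9% of all features.

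**Figure D1:**
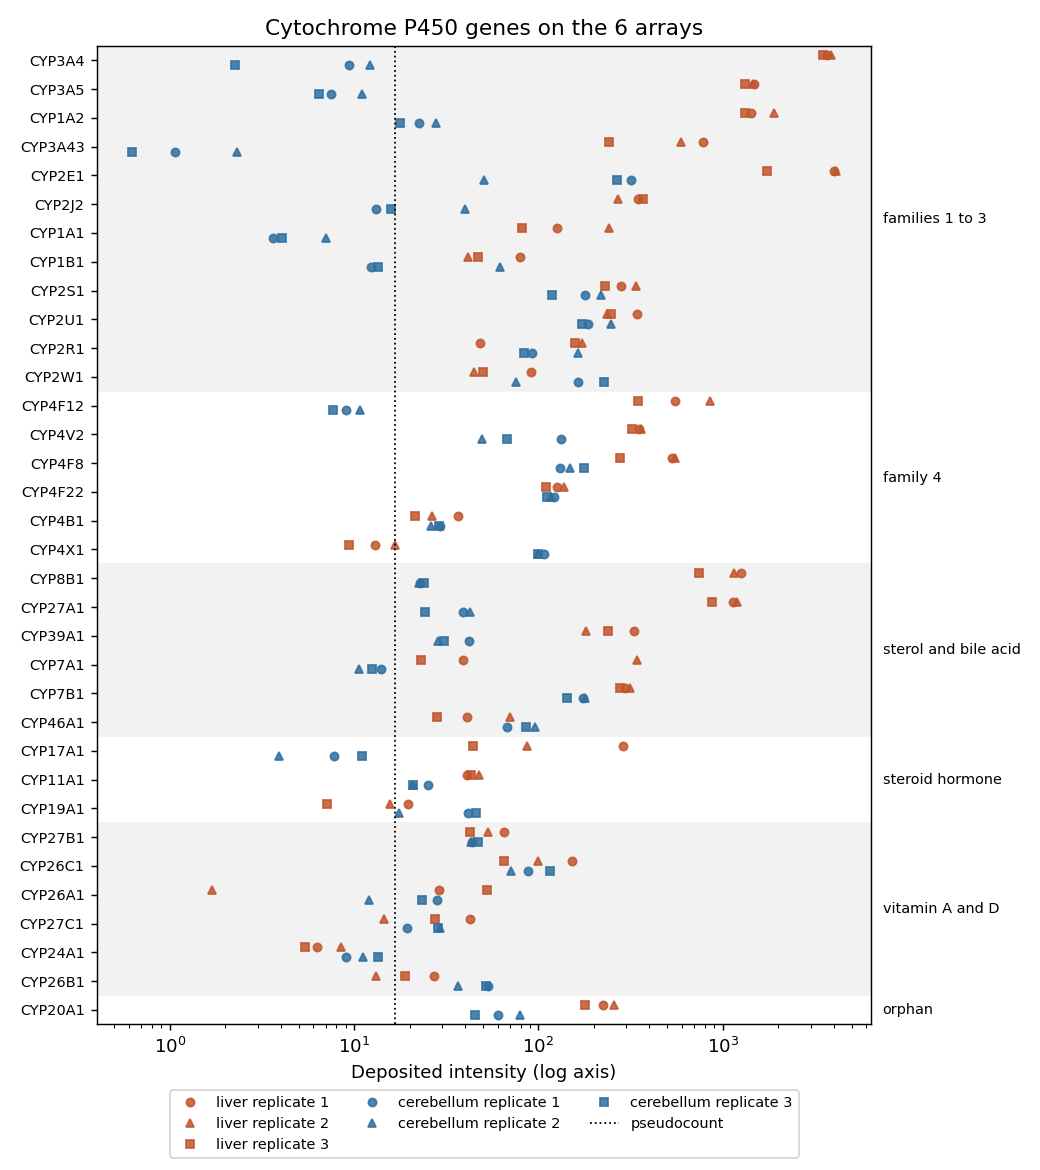
Deposited intensity (log axis) of the 34 P450 genes on each of the 6 arrays, grouped by role, with liver in orange, cerebellum in blue and a marker shape per replicate. The dotted line is the pseudocount of 16.8, and genes such as CYP3A4 and CYP3A43 lie left of it in cerebellum and far right of it in liver.

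Families 1 to 3 hold most enzymes that oxidise drugs and other foreign compounds. Of their 12 measured genes, 8 were higher in liver, 1 was lower and 3 did not pass, with a median difference of 3.00. CYP3A4, the main drug-oxidising P450 of the adult human liver, had 3676, 3882 and 3493 in liver, against 9.41, 12.2 and 2.26 in cerebellum. Its close relative CYP3A5 had 1485, 1458 and 1322 in liver, against 7.51, 11.1 and 6.47 in cerebellum. Both genes were far apart between the tissues and even among the livers, whose highest value exceeded the lowest by a factor of 1.11 for CYP3A4 and 1.12 for CYP3A5. The CYP3A4 livers lay near the top of the scale, whose highest value was 6527, so a spread among them may be understated. The third relative, CYP3A43, had 780, 592 and 241 in liver, against 1.07, 2.31 and 0.627 in cerebellum, so that liver replicate 3 lay well below the other livers. The differences of the 3 genes were 7.25 ± 0.20, 5.84 ± 0.16 and 4.79 ± 0.37 (SE, limma adjusted p = 1.51e-07, 1.51e-07 and 1.37e-05). They neighbour each other in the chimpanzee genome: CYP3A4 and CYP3A43 have no protein-coding gene between them, and CYP3A5 and CYP3A4 have 2, one of them CYP3A7. Copies this alike can share probe signal, so how much of a value belongs to which gene is not known.

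CYP1A2, which oxidises caffeine, had 1426, 1903 and 1315 in liver, against 22.5, 27.7 and 17.7 in cerebellum. The mean in liver was 68.4 times that in cerebellum, with a difference of 5.30 ± 0.20 (SE, limma adjusted p = 3.29e-07). Its direct neighbour CYP1A1, known for oxidising aromatic hydrocarbons and for induction through the receptor AHR, had 126, 242 and 81.0 in liver, against 3.61, 7.05 and 4.07 in cerebellum. The livers of CYP1A1 spread by a factor of 2.99 but none came near the cerebella (difference 2.83 ± 0.32, SE, limma adjusted p = 1.36e-04). The family's remaining member, CYP1B1, acts on oestradiol and is known mainly from tissues other than the liver. It had 79.2, 41.7 and 47.2 in liver, against 12.3, 62.2 and 13.5 in cerebellum, and the tissues overlapped through cerebellum replicate 2 (difference 0.79 ± 0.39, SE, limma adjusted p = 0.125). Without that array the difference was 1.26 (limma adjusted p = 0.00577). On the same array the 8 measured of 10 fibroblast, stellate cell and smooth muscle markers summed to 1265, beside 545 and 518 in the other cerebella and 1535 to 4220 in liver, and the 10 endothelial markers to 597, beside 356 and 323, and 2236 to 3695 in liver. Most of the sum of 1265 came from DCN (114, 474 and 185 in cerebellum replicates 1 to 3) and RGS5 (313, 651 and 210). COL1A1, COL3A1 and MYH11 of the same list were lowest in cerebellum replicate 2. No marker of either list had a mean of 0 or below. The part of these cell types in the CYP1B1 values was not tested. The antisense RNA CYP1B1-AS1 had 23.2, 31.0 and 26.1 in liver, against 14.5, 9.22 and 16.4 in cerebellum, values near the pseudocount, with a difference of 0.53 ± 0.18 (SE, limma adjusted p = 0.0331). It did not pass without liver replicate 2 or any single cerebellum array (adjusted p between 0.0593 and 0.102), with a pseudocount of 30.3 (adjusted p = 0.0528), with the replicate number as a block (adjusted p = 0.0652) and under the alignment on general genes (adjusted p = 0.940).

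The CYP2 genes did not move together. CYP2E1, which oxidises ethanol and small solvents, had 4040, 4107 and 1746 in liver, against 318, 50.8 and 267 in cerebellum. Liver replicate 3 was the lowest liver and cerebellum replicate 2 the lowest cerebellum, yet the tissues stayed apart (difference 4.06 ± 0.60, SE, limma adjusted p = 5.98e-04). CYP2J2, which makes epoxides of arachidonic acid, had 346, 271 and 371 in liver, against 13.1, 39.8 and 15.9 in cerebellum, where replicate 2 was again the one apart (difference 3.17 ± 0.27, SE, limma adjusted p = 2.11e-05). CYP2S1, known mainly from epithelia outside the liver, had 281, 339 and 230 in liver, against 178, 220 and 119 in cerebellum. Its livers only just cleared the cerebella (difference 0.69 ± 0.25, SE, limma adjusted p = 0.0445). The CYP2S1 call was lost without liver replicate 1 or 2 or cerebellum replicate 1 or 3 (adjusted p between 0.0852 and 0.168) and under the alignment on general genes (difference 0.18, adjusted p = 0.524).

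The last 3 members of the family gave no stable tissue difference. CYP2U1, a hydroxylase of long-chain fatty acids found in human brain, had 341, 235 and 247 in liver, against 187, 247 and 172 in cerebellum (difference 0.41 ± 0.21, SE, limma adjusted p = 0.145; -0.11 under the alignment on general genes). CYP2R1, which takes the first step of vitamin D activation, had 48.0, 172 and 158 in liver, against 92.6, 165 and 84.0 in cerebellum, and the liver of replicate 1 lay below all other values (difference 0.03 ± 0.42, SE, limma adjusted p = 0.956). The dimmer CYP2R1 feature had 41.9, 52.7 and 72.0 in liver, against 58.5, 119 and 66.2 in cerebellum, a difference of -0.41 (limma adjusted p = 0.233), so the 2 features differed in sign and neither passed. CYP2W1, an enzyme with no settled role that is known from colorectal tumours, had 91.4, 44.5 and 50.1 in liver, against 163, 75.5 and 228 in cerebellum. It was called lower in liver although the ranges overlapped (difference -1.07 ± 0.37, SE, limma adjusted p = 0.0404). The CYP2W1 call was lost without liver replicate 2 or 3 or cerebellum replicate 1 or 3 (adjusted p between 0.0957 and 0.144).

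**Figure D2:**
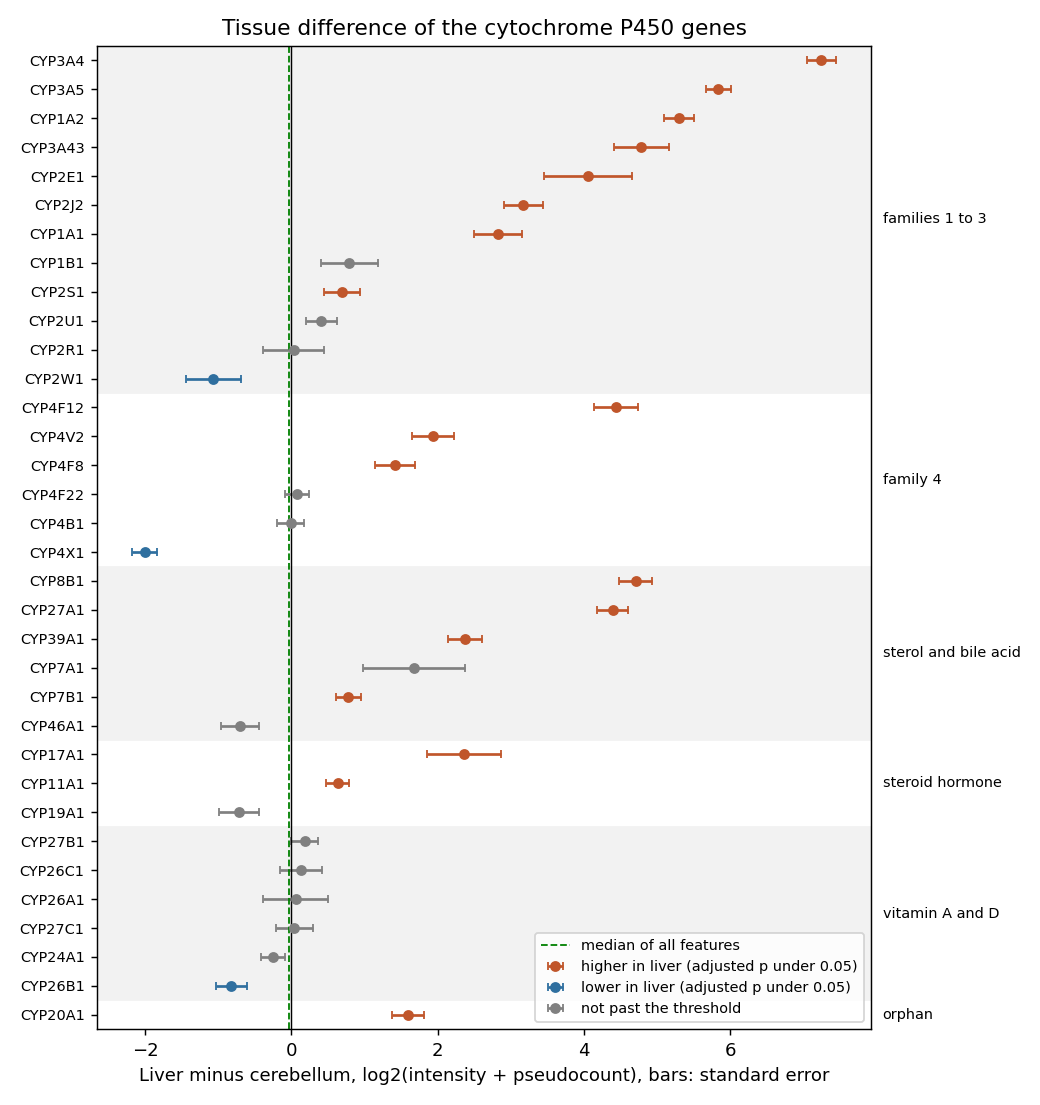
Liver minus cerebellum difference of the 34 P450 genes on log2(intensity + 16.8), with bars of 1 standard error, grouped by role. The 18 genes in orange were higher in liver, the 3 in blue (CYP2W1, CYP4X1 and CYP26B1) lower, and the 13 in grey did not pass; under the alignment on general genes 3 of the orange genes lose their call and all points move left by the same amount.

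Family 4 hydroxylates fatty acids and their derivatives. Of 6 measured genes, 3 were higher in liver, 1 was lower and 2 did not pass, with a median difference of 0.75. CYP4F12, which acts on arachidonic acid, had 548, 849 and 346 in liver, against 9.05, 10.7 and 7.72 in cerebellum (difference 4.44 ± 0.29, SE, limma adjusted p = 5.55e-06). CYP4V2, whose loss causes a crystalline dystrophy of the human retina, had 351, 360 and 320 in liver, against 133, 49.1 and 67.7 in cerebellum. The livers were close to each other and cerebellum replicate 1 was the highest cerebellum (difference 1.94 ± 0.29, SE, limma adjusted p = 6.29e-04). On that array 5 measured of 8 oligodendrocyte markers summed to 5752, beside 1816 and 2398 in the other cerebella and 450 to 615 in liver, none with a mean of 0 or below, and their part in the CYP4V2 values was not tested. CYP4F8, a hydroxylase of prostaglandin precursors known from human seminal vesicles, had 532, 549 and 276 in liver, against 131, 149 and 178 in cerebellum (difference 1.42 ± 0.27, SE, limma adjusted p = 0.00270). Here too liver replicate 3 was the lowest liver, and it still lay above all cerebella. CYP4F3 lies between CYP4F8 and CYP4F12 in the chimpanzee genome. Like CYP4F2 and CYP4F11, it occurred only on features that name several genes. Alike copies can share probe signal, so how much of the CYP4F8 and CYP4F12 values belongs to each gene is not known.

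CYP4X1, a P450 known from brain that can epoxidise the endocannabinoid anandamide, went the other way. It had 12.9, 16.7 and 9.36 in liver, against 108, 98.9 and 99.7 in cerebellum. The cerebella lay within a factor of 1.09 of each other and all livers lay below the pseudocount, so the difference of -2.00 ± 0.17 (SE, limma adjusted p = 2.18e-05) depends on it. CYP4X1 passed at pseudocounts of 10.2 and 30.3 and in every other alternative tried, with differences from -2.52 to -1.62. Its relative CYP4B1, a P450 of the lung in several mammals, has 2 protein-coding genes between it and CYP4X1 in the chimpanzee genome. CYP4B1 had 36.7, 26.6 and 21.5 in liver, against 29.3, 26.2 and 28.7 in cerebellum, with overlapping ranges and a difference of -0.01 ± 0.18 (SE, limma adjusted p = 0.972). CYP4F22, which makes lipids of the skin barrier, has 2 between it and CYP4F8. Its 126, 138 and 110 in liver and 121, 118 and 111 in cerebellum also overlapped (difference 0.08 ± 0.16, SE, limma adjusted p = 0.708; -0.43 under the alignment on general genes). Neighbouring members of this family thus differed in whether they passed the test, and the differences between neighbours were not tested.

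The P450 genes of sterol and bile acid metabolism were mostly higher in liver. Of 6 measured genes, 4 were higher, 0 were lower and 2 did not pass, with a median difference of 2.03. CYP8B1, which sets the share of cholic acid among bile acids, had 1260, 1151 and 741 in liver, against 22.7, 22.6 and 23.9 in cerebellum (difference 4.71 ± 0.22, SE, limma adjusted p = 8.70e-07). CYP27A1, a mitochondrial enzyme that oxidises the sterol side chain, had 1131, 1202 and 880 in liver, against 39.0, 42.5 and 24.1 in cerebellum. Its mean in liver was 30.4 times that in cerebellum (difference 4.39 ± 0.21, SE, limma adjusted p = 9.58e-07). Macrophages are known to express CYP27A1, and all 10 measured macrophage markers were higher in liver as well, with sums of 5276 to 9506, against 257 to 569 in cerebellum. The sum of 9506 was that of liver replicate 3, the lowest liver for CYP27A1. The part of macrophages in the tissue difference of CYP27A1 was not tested. CYP39A1, which acts on the oxysterol made by CYP46A1, had 330, 181 and 238 in liver, against 41.8, 28.4 and 30.8 in cerebellum (difference 2.37 ± 0.24, SE, limma adjusted p = 5.67e-05).

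CYP7B1, the oxysterol hydroxylase of the alternative bile acid pathway, had 294, 315 and 278 in liver, against 175, 179 and 143 in cerebellum. The livers were 1.78 times the cerebella in mean and did not overlap with them (difference 0.78 ± 0.17, SE, limma adjusted p = 0.00469), but the call was lost under the alignment on general genes (difference 0.27, adjusted p = 0.263). CYP7A1, the rate-limiting enzyme of the classic pathway, was far higher in 1 liver than in the others. It had 39.1, 345 and 23.2 in liver, against 13.9, 10.6 and 12.5 in cerebellum. Liver replicate 2 exceeded replicate 3 by a factor of 14.9, the widest ratio between livers among the P450 genes whose livers all lay above the pseudocount. All livers lay above all cerebella, yet the spread kept the difference of 1.68 ± 0.70 (SE, limma adjusted p = 0.0768) from passing. Without liver replicate 2 the difference was 0.70 (adjusted p = 0.0358), without liver replicate 3 it was 2.29 (adjusted p = 0.0228), and with the replicate number as a block its adjusted p was 0.0467.

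CYP46A1, the cholesterol hydroxylase of neurons, had 41.2, 70.2 and 28.3 in liver, against 67.9, 95.5 and 86.1 in cerebellum. The tissues overlapped through liver replicate 2, and the cerebella were 1.78 times the livers in mean. Its difference of -0.70 ± 0.26 (SE) fell on the threshold (limma adjusted p = 0.050034), so small changes of procedure decided the call. It passed without liver replicate 2 (difference -0.96, adjusted p = 0.0120), without dim features (adjusted p = 0.0435), with features of 1 symbol averaged, with the replicate number as a block (adjusted p = 0.0368) and under the alignment on general genes (difference -1.21, adjusted p = 0.00181). Over all alternatives its adjusted p lay between 0.00181 and 0.133, and its direction was the same in each.

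Among the P450 genes of steroid hormone synthesis, 3 were measured and 2 were higher in liver. CYP17A1, an enzyme of androgen and cortisol synthesis, had 287, 86.8 and 44.0 in liver, against 7.77, 3.93 and 11.0 in cerebellum. Its livers spread by a factor of 6.52 with replicate 1 the highest (difference 2.36 ± 0.50, SE, limma adjusted p = 0.00447). Without liver replicate 1 the difference was 1.72, and the call held in every alternative. CYP11A1, which cuts the cholesterol side chain in mitochondria to start steroid synthesis, had 40.8, 47.8 and 43.1 in liver, against 25.3, 20.8 and 20.9 in cerebellum (difference 0.63 ± 0.16, SE, limma adjusted p = 0.0102), a call lost under the alignment on general genes (difference 0.12, adjusted p = 0.631). CYP19A1, the aromatase that makes oestrogens, had 19.5, 15.6 and 7.13 in liver, against 41.6, 17.6 and 45.9 in cerebellum. Cerebellum replicate 2 lay among the livers, and the difference of -0.72 ± 0.27 (SE, limma adjusted p = 0.0551) did not pass. Without cerebellum replicate 2 it was -0.99 (adjusted p = 0.0105), and over all alternatives its adjusted p lay between 0.00878 and 0.190.

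The P450 genes that handle vitamins A and D had the median difference nearest to 0 of the groups by role. Of 6 measured genes 0 were higher in liver, 1 was lower and 5 did not pass, with a median difference of 0.05, beside -0.04 over all features. The lower one was CYP26B1, which clears retinoic acid in the brain among other tissues. It had 27.1, 13.1 and 18.8 in liver, against 53.4, 36.4 and 52.0 in cerebellum (difference -0.82 ± 0.21, SE, limma adjusted p = 0.0104). Its call held with each array left out in turn, with adjusted p up to 0.0481. The other retinoic acid hydroxylases overlapped between the tissues. CYP26A1 had 28.9, 1.68 and 52.4 in liver, against 28.1, 12.1 and 23.2 in cerebellum, and CYP26C1 had 151, 99.9 and 65.1 in liver, against 88.1, 71.3 and 115 in cerebellum. Their differences were 0.06 ± 0.44 and 0.13 ± 0.28 (SE, limma adjusted p = 0.926 and 0.725), and the sign of both changed under the alignment on general genes and with some single arrays left out. The livers of CYP26A1 lay far apart, with replicate 2 near 0 and replicate 3 well above the pseudocount.

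Neither CYP27B1 nor CYP24A1, enzymes of vitamin D metabolism, passed the test. CYP27B1, which makes the active hormone and is known mainly from kidney, had 64.9, 53.0 and 42.4 in liver, against 43.8, 43.1 and 47.0 in cerebellum (difference 0.18 ± 0.18, SE, limma adjusted p = 0.432). CYP24A1, which destroys the hormone, had 6.32, 8.49 and 5.40 in liver, against 9.01, 11.2 and 13.5 in cerebellum, with all values below the pseudocount (difference -0.25 ± 0.16, SE, limma adjusted p = 0.230). CYP27C1, which acts on retinol in human skin, had 42.4, 14.5 and 27.4 in liver, against 19.5, 29.1 and 28.4 in cerebellum (difference 0.04 ± 0.25, SE, limma adjusted p = 0.905). With arrays aligned on the general genes the differences of CYP27B1 and CYP27C1 were -0.33 and -0.47, neither past the threshold, and that of CYP24A1 was -0.77 (adjusted p = 0.00834). CYP20A1, an orphan P450 with no settled substrate, had 223, 256 and 179 in liver, against 60.2, 79.5 and 45.3 in cerebellum. Its livers were 3.56 times the cerebella in mean (difference 1.60 ± 0.22, SE, limma adjusted p = 3.89e-04).

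P450 genes with known expression in brain were called in both directions. Of 11 listed genes 10 were measured, and 4 of them were higher in liver, namely CYP2E1, CYP2J2, CYP20A1 and CYP7B1, while CYP4X1 and CYP26B1 were lower and 4 did not pass. Of all features, 23.9% were higher in liver and 26.7% lower. The median difference of the list was 0.59, beside 0.78 over all 34 P450 genes. With arrays aligned on the general genes 3 of the list were higher in liver and 4 lower, against 2118 and 6958 of all 15143 features. Cerebellum is 1 region of the brain, and other regions were not analysed here.

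The livers differed among themselves in the genes that were higher in liver. Liver replicate 3 was the lowest liver for 15 of these 18 P450 genes, beside 37.3% of all features, and for 9 of the other 16. Its median deviation from the mean of the other 2 livers was -0.39 on the log2 scale over the 18 genes, against -0.02 over all features. Replicate 2 was the highest liver for 12 of the 18 genes, beside 31.4% of all features, with a median deviation of 0.26. The 18 genes were picked for being higher in liver, whereas most of all features were not. The same counts were not made over all features higher in liver. Whether this order of the livers is particular to P450 genes therefore cannot be told. The largest shortfalls of replicate 3 among the 18 were those of CYP17A1 at -1.55, CYP3A43 at -1.44, CYP2E1 at -1.21, CYP1A1 at -0.98, CYP4F12 at -0.95 and CYP4F8 at -0.93. CYP3A4, CYP7B1 and CYP4V2 deviated there by only -0.11, -0.13 and -0.14. The exceptions to the order were CYP2J2, which was highest in replicate 3, and CYP39A1 and CYP11A1, for which it lay in the middle. The hepatocyte markers had a median deviation of -0.06 in replicate 3, but they lay near the top of the scale, where a shortfall may be understated. Macrophage and fibroblast marker sums were highest in replicate 3. Their part in the lower P450 values was not tested. With 1 array per animal and tissue, age and sex cannot be told apart from other differences between animals. Without liver replicate 3, 19 P450 genes were higher in liver and 2 lower. Of all features 3704 were then higher in liver and 3966 lower, beside 3617 and 4045 with all arrays.

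**Figure D3:**
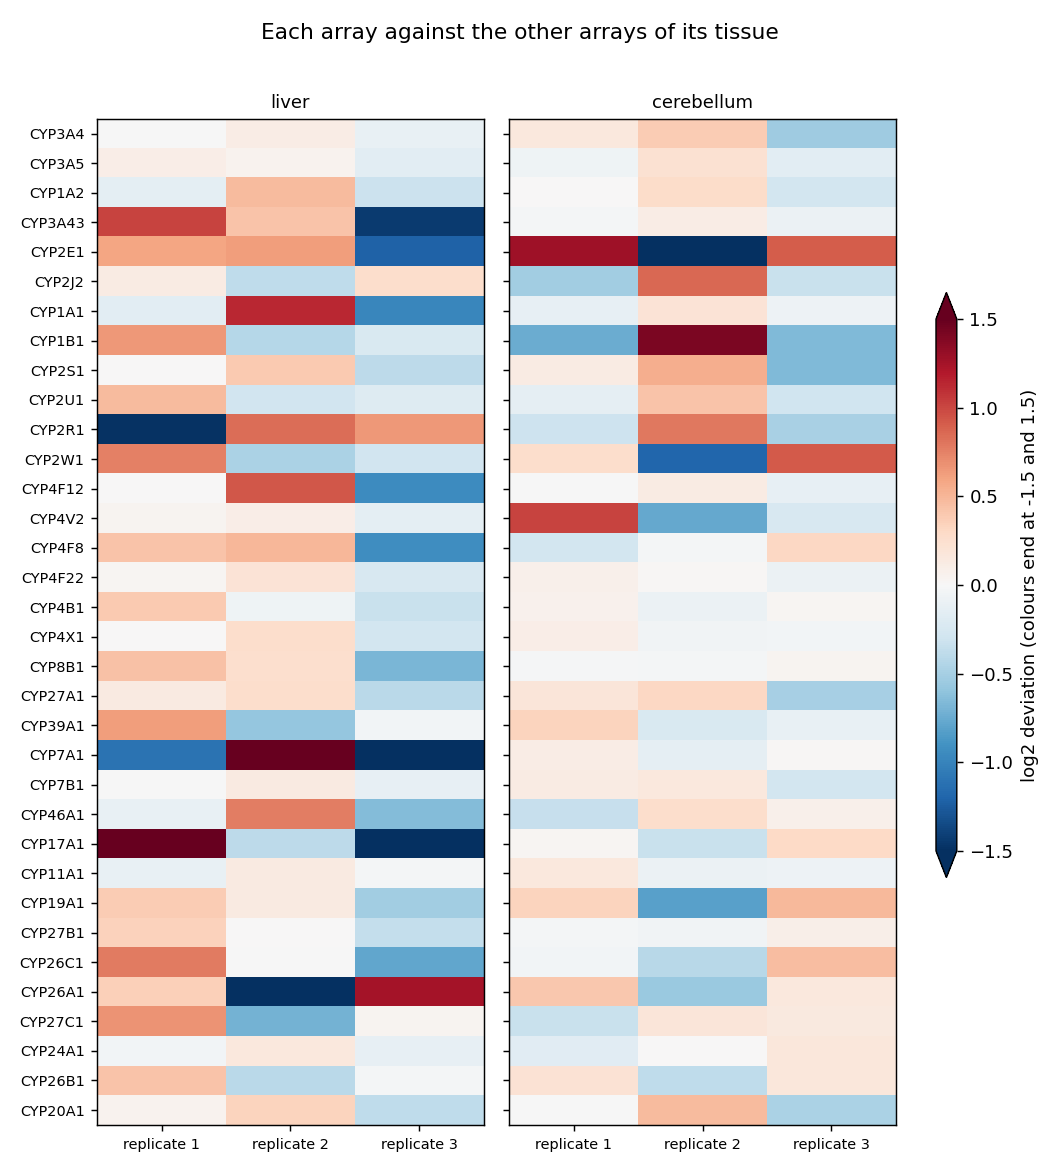
Deviation of each array from the mean of the other arrays of its tissue, on log2(intensity + 16.8), for the 34 P450 genes in liver on the left and cerebellum on the right, grouped in the same order as the tissue differences. Blue fills most of the liver replicate 3 column, red marks CYP7A1 in liver replicate 2 and CYP17A1 in liver replicate 1, and cerebellum replicate 2 is red for CYP1B1 and blue for CYP2E1.

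In cerebellum, the median deviations from the mean of the other 2 arrays over the 18 genes higher in liver were 0.02, 0.14 and -0.14 in replicates 1 to 3. The widest ratio between cerebella among P450 genes whose cerebella all lay above the pseudocount was that of CYP2E1, at 6.27, followed by CYP2W1 at 3.02 and CYP4V2 at 2.71. Replicate 2 was the low cerebellum for CYP2E1, CYP2W1 and CYP4V2 and the high one for CYP1B1, CYP2J2 and CYP2R1. Without cerebellum replicate 2, 19 P450 genes were higher in liver and 4 lower. Of all features 3372 were then higher in liver and 3899 lower, beside 3617 and 4045 with all arrays.

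Genes that serve the P450 enzymes were partly higher in liver. Of 11 listed electron donors and heme-binding partners 6 were measured, none of them a ferredoxin or the ferredoxin reductase. Of the 6, 4 were higher and 0 lower, with a median difference of 1.31. For this list and those that follow, the background is 23.9% of all features higher in liver and 26.7% lower. POR, the reductase that feeds electrons to the P450 enzymes of the endoplasmic reticulum, had 1189, 1240 and 1061 in liver, against 61.8, 121 and 79.9 in cerebellum (difference 3.53 ± 0.23, SE, limma adjusted p = 4.79e-06). CYB5A, the cytochrome b5 of the endoplasmic reticulum, had 1529, 2004 and 2269 in liver, against 160, 181 and 147 in cerebellum (difference 3.43 ± 0.20, SE, limma adjusted p = 2.60e-06). In liver replicate 3 POR was the lowest of the livers and CYB5A the highest. The cytochrome b5 reductases CYB5R1 and CYB5R3 differed by 1.57 and 1.06 and also passed. CYB5B, the cytochrome b5 of the outer mitochondrial membrane, and PGRMC2, a heme-binding membrane protein, had differences of -0.04 and -0.06 (limma adjusted p = 0.869 and 0.782), with means of 733 ± 74.0 and 1874 ± 45.7 in liver and 752 ± 65.5 and 1953 ± 121 in cerebellum (SD, n = 3 per tissue).

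Heme is the cofactor of every P450. Of 11 measured genes of heme synthesis and breakdown, 5 were higher in liver, 0 were lower and 6 did not pass, with a median difference of 0.45. ALAS1, the rate-limiting enzyme of heme synthesis in most tissues, had 975, 841 and 415 in liver, against 238, 211 and 222 in cerebellum, with liver replicate 3 the lowest liver (difference 1.58 ± 0.30, SE, limma adjusted p = 0.00242). The synthesis enzymes UROD and FECH differed by 1.37 and 1.68. The breakdown enzymes HMOX1 and BLVRB differed by 3.85 and 3.02 (limma adjusted p = 1.06e-06 and 1.06e-05), both more than any synthesis enzyme measured. Macrophages, which break down the heme of red cells, also express HMOX1, and their marker sums are given above. CPOX, PPOX, UROS, ALAS2, BLVRA and HMOX2 did not pass, with differences from -0.50 to 0.45.

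Transcription factors that control P450 genes followed mostly the liver. Of 15 measured genes 10 were higher in liver, 1 was lower and 4 did not pass, with a median difference of 2.79. NR5A2, a nuclear receptor that acts on bile acid genes, differed by 4.18 and CEBPB by 4.01. AHR, the receptor behind induction of CYP1 genes, had 745, 702 and 527 in liver, against 28.8, 40.2 and 27.0 in cerebellum (difference 3.78 ± 0.20, SE, limma adjusted p = 1.64e-06). Its partner ARNT had 325, 296 and 286 in liver, against 316, 219 and 292 in cerebellum, which overlapped (difference 0.14 ± 0.19, SE, limma adjusted p = 0.569). ARNT2, the related partner known from neurons, was the lower one, with 22.5, 35.2 and 47.2 in liver, against 244, 435 and 287 in cerebellum (difference -2.70 ± 0.26, SE, limma adjusted p = 5.17e-05). NR1I3, the xenobiotic receptor CAR, had 353, 176 and 108 in liver, against 37.5, 21.3 and 35.0 in cerebellum (difference 2.13 ± 0.37, SE, limma adjusted p = 0.00141). Liver replicate 3 was the lowest liver for 10 of the 15 factors, beside 37.3% of all features.

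Enzymes of the surrounding pathways were also mostly higher in liver. Among 7 measured bile acid enzymes other than P450, 6 were higher and CH25H did not pass, with a median difference of 4.11. SLC27A2 and SLC27A5, acyl-CoA synthetases of bile acid precursors and bile acids, differed by 5.26 and 4.76. AKR1D1, a steroid reductase of bile acid synthesis, had 971, 375 and 150 in liver, against 10.6, 10.4 and 10.6 in cerebellum (difference 3.88 ± 0.54, SE, limma adjusted p = 4.05e-04). Its order among the livers was that of CYP17A1 and CYP3A43, highest in replicate 1 and lowest in replicate 3, and unlike that of CYP7A1. Of 17 retinoid enzymes and carriers, 12 were higher in liver, 1 was lower and 4 did not pass, with a median of 1.23, and RBP4 and RDH10 differed by 7.00 and 3.95. The lower one was CRABP2, a carrier of retinoic acid, at 2.28 ± 3.19 in liver and 11.0 ± 3.98 in cerebellum (SD, n = 3 per tissue), all values below the pseudocount (difference -0.52, limma adjusted p = 0.0491). It was lost when any 1 array other than liver replicate 2 was left out, at the higher pseudocount and with the replicate number as a block.

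Of 14 measured genes of cholesterol synthesis, the pathway of CYP51A1, 9 were higher in liver, 0 were lower and 5 did not pass, with a median of 1.10. MSMO1, which follows CYP51A1 in the pathway, and DHCR7, which ends it, differed by 3.03 and 2.36. P450 enzymes whose symbols do not begin with CYP were both higher in liver. TBXAS1, the thromboxane synthase, had 263, 185 and 278 in liver, against 22.7, 24.0 and 19.7 in cerebellum (difference 2.72 ± 0.20, SE, limma adjusted p = 8.45e-06). PTGIS, the prostacyclin synthase, had 110, 207 and 324 in liver, against 15.5, 24.0 and 24.7 in cerebellum (difference 2.49 ± 0.33, SE, limma adjusted p = 3.38e-04). Macrophages and platelets are known for TBXAS1 and vessel walls for PTGIS. Both were highest in liver replicate 3, the liver with the highest sums of macrophage, endothelial and fibroblast markers. The largest endothelial marker there was ENG, with 465, 592 and 1327 in liver replicates 1 to 3. KDR (356, 538 and 202) and CLDN5 (208, 209 and 167) of the endothelial list were lowest in liver replicate 3. The part of those cells in the TBXAS1 and PTGIS values was not tested.

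**Figure D4:**
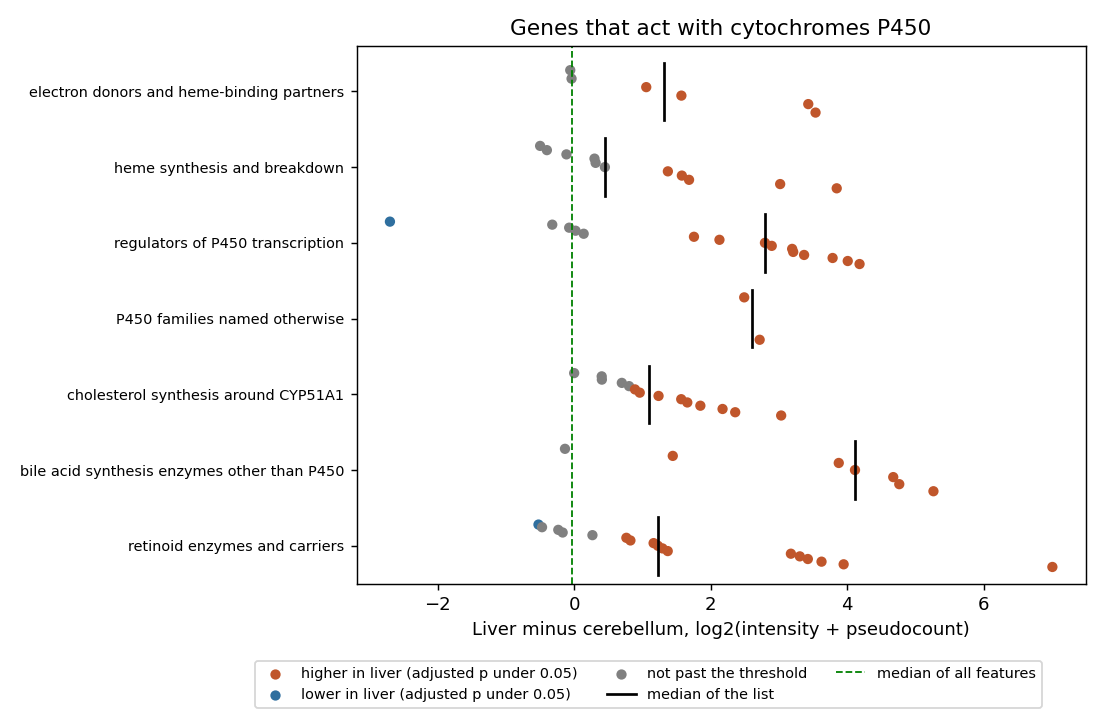
Liver minus cerebellum difference on log2(intensity + 16.8) of genes that act with P450 enzymes, 1 point per gene and 1 row per list, with the median of each list as a black line and that of all features as a dashed line. Orange genes were higher in liver, blue genes (ARNT2 and CRABP2) lower, and grey genes did not pass; under the alignment on general genes all points move left by the same amount.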

How the data were processed

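RNA of 3 chimpanzee livers and 3 cerebella was measured on exon arrays. Per the labels' protocols, RNA was extracted with TRIzol and ribosomal RNA was reduced before labelling. The submitters' processing notes name GCOS without a version. The authors' deposited intensities, on a linear scale, had been quantile normalized, since all 6 arrays hold the same sorted values, and 93 values per array lie below 0, so some background had been subtracted. How background was corrected, how probes were summarised and whether probes were chosen to match both species is not given in the sources used here.

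Gene names came from the platform annotation. Values below 0 were set to 0, and log2(intensity + 16.8), with the 10th percentile of all values as pseudocount, was fitted over 15143 features with limma 3.58.1 in R 4.3.3 (lmFit, eBayes, two-sided), with no filter and no block, and adjusted by Benjamini-Hochberg. The procedure was checked on simulated data. The number of arrays limits precision: permuting 3 against 3 cannot give a two-sided p under 0.1. Any P450 gene could be named, together with all members of short pathway lists and the 2 largest calls per direction of longer ones; in the list of regulators, AHR, ARNT and NR1I3 were named after their values were seen. The members and lists were chosen with earlier results of these data known. Neighbouring genes were read from the RefSeq table of the chimpanzee assembly, in which 30 of the 35 symbols matched a protein-coding gene. The labels call the samples biological replicates.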

Additional observations from a re-analysis of the deposited data

How the results depend on the processing

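The count of 18 P450 genes higher in liver lay between 15 and 19 over all alternatives, and that of 3 lower between 1 and 6. Over the same alternatives, between 2118 and 3704 of all features were higher in liver and between 2988 and 6958 lower. Centring on array medians could move no call, because all 6 arrays hold the same sorted values and so the same median. Under the alignment on general genes 2118 features passed toward liver and 6958 toward cerebellum. In that alignment the calls higher in cerebellum were 6 of all P450 genes, 1 each of the sterol, steroid and bile acid enzyme lists, 2 each of the vitamin and electron donor lists, 3 each of the heme, regulator and retinoid lists and 4 of the brain list, and 1 steroid P450 gene stayed higher in liver. It turned the sign of 7 P450 genes that did not pass, to -0.46 for CYP26A1, -0.38 for CYP26C1, -0.33 for CYP27B1, -0.47 for CYP27C1, -0.48 for CYP2R1, -0.11 for CYP2U1 and -0.43 for CYP4F22. Averaging features of 1 symbol gave CYP2R1 a difference of -0.19 and called 1 sterol P450 gene, CYP46A1, higher in cerebellum. At an adjusted p under 0.01, 2624 of all features were higher in liver and 2988 in cerebellum, and 1 steroid P450 gene was higher in liver. The counts higher in cerebellum were then 1 of all P450 genes and of the brain list. They were 0 of families 1 to 3, of the vitamin list and of the retinoid list. For the retinoid list that count was 2 at the lower pseudocount and with trend and robust eBayes, and 0 at the higher pseudocount, without dim features and with the block. Without dim features it was 1 for the sterol and 0 for the vitamin list, where the filter took out CYP26B1, and trend and robust eBayes called 1 steroid gene higher in cerebellum. Leaving out 1 array at a time gave differences from -0.36 to 0.59 for CYP26A1, -0.13 to 0.39 for CYP26C1, -0.18 to 0.28 for CYP27C1, -0.25 to 0.53 for CYP2R1 and -0.14 to 0.10 for CYP4B1, and counts higher in cerebellum from 0 to 1 for families 1 to 3 and for the sterol, steroid, heme and retinoid lists. With the replicate number as a block, 19 P450 genes were higher in liver and 4 lower, the sterol list held 1 gene higher in cerebellum, and 3538 and 3994 features were called. Deviations of same-numbered arrays correlated at 0.11, 0.16 and -0.14 across features, not every array correlated best with its own number, and the labels give same-numbered samples the same sex and age but name no shared animal. Where no cause is named it was not tested. Dim values near the pseudocount limit what can be said of CYP24A1, CYP26A1 and CYP19A1.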

Other observations

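Cholesterol synthesis genes differed from the P450 genes in their order across the livers. Liver replicate 3 was the lowest liver for most P450 genes higher in liver. It was the highest liver for 10 of the 14 measured cholesterol synthesis genes, beside 5204 of all 15143 features. Its median deviation from the other 2 livers over the 14 genes was 0.80 on the log2 scale. Replicate 1 was the lowest for 9 of the 14, beside 5410 of all features, with a median deviation of -0.67. FDPS, LSS and SC5D are named after their values were seen. FDPS, which makes farnesyl diphosphate, had 235, 333 and 1108 in liver replicates 1 to 3, and LSS, which closes the sterol ring, had 105, 124 and 457. SC5D, a late sterol desaturase, went the other way with 1927, 2013 and 895. Bile acid enzymes other than P450 were lowest in replicate 3 for 6 of 7 genes, beside 37.3% of all features, with a median deviation of -0.74. These are values of 3 arrays, each set against the other 2, and no test was made.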
